A study of Homo sapiens with 6 samples.

Results

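The CDK inhibitors are 7 genes, CDKN1A, CDKN1B, CDKN1C, CDKN2A, CDKN2B, CDKN2C and CDKN2D, taken by symbol from the probe sets whose platform annotation gives exactly 1 gene. For 6 of them, out of 18417 genes in all, a probe set was found, and each of the 6 had 1 such probe set. CDKN2C was not analysed here. The induced drug tolerant cells (IDTC, 3 arrays) were WM164 cells given 500 nM PLX4032 for 16 days, and the Parent cells (3 arrays) were WM164 cells given DMSO, the solvent. WM164 is a human BRAF-mutant melanoma line from a lymph node metastasis, and PLX4032 (vemurafenib) inhibits mutant BRAF. Both groups are cultures of this 1 line, grown in the same medium, and the labels give no length for the DMSO treatment. Cells that survived the drug and cells that changed under it cannot be told apart in this design, nor can fewer cells of a kind and less RNA per cell. The labels do not say whether the 3 cultures of a group were separate experiments, and the p-values therefore rest on a spread between samples that may be partly technical.

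A cyclin-dependent kinase (CDK) drives the cell cycle only when a cyclin is bound to it, and CDK inhibitors hold these kinases back. Those of the INK4 family (p16 from CDKN2A, p15 from CDKN2B, p18 from CDKN2C and p19 from CDKN2D) bind CDK4 and CDK6 and keep D-type cyclins off them. Those of the Cip/Kip family (p21 from CDKN1A, p27 from CDKN1B and p57 from CDKN1C) bind cyclin-CDK complexes, above all those of CDK2, and p21 and p27 also take part in assembling cyclin D with CDK4. With the kinases held back, the retinoblastoma protein stays bound to E2F factors and genes for DNA replication stay off. In melanocytic cells, loss of CDKN2A is a well-known step in the formation of melanoma, and p27 is known to accumulate when ERK signalling is blocked.

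The arrays correlated at r = 0.995 to 0.998 within groups and at r = 0.953 to 0.957 between groups over the 18417 genes. Values are the log2 expression values deposited by the authors. A log2 difference of 1 is a 2-fold difference, and differences are IDTC minus Parent throughout. The words rose and fell are used for genes called by limma (adjusted p below 0.05 by the Benjamini-Hochberg method, computed over all 18417), an error after ± is the SD (n = 3) of a level or the standard error of a difference, and every adjusted p is from this fit unless a test is named. Of 8 measured markers of the melanocyte lineage, 6 rose, S100B fell and MITF was not called, and their mean log2 level was 11.13 to 11.28 on the IDTC arrays and 10.10 to 10.13 on the Parent arrays. The mean level of 5 keratinocyte, 6 fibroblast, 5 endothelial and 4 immune cell markers lay between 4.69 and 6.11 on the IDTC arrays and between 5.07 and 6.24 on the Parent arrays. Among these 20 markers 2 fell (the immune marker LYZ and the fibroblast marker LUM) and none rose, and their part in the results below was not tested.

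In the drug-tolerant cells 3 of the 6 measured CDK inhibitor genes fell (CDKN1A, CDKN2B and CDKN2A), 1 rose (CDKN1B) and 2 were not called (CDKN1C and CDKN2D). Over all genes 24.9% fell and 21.7% rose, 46.6% in all. Of the 6 measured members, 3 fell and 1 rose by 2-fold or more, against 5.4% and 3.81% of all genes. The groups did not overlap for 4 of the 6 measured members, against 54.1% of all genes. These 4 are the called members, so this count is not separate from the calls. Both families were split: in the Cip/Kip family 1 gene fell, 1 rose and 1 was not called, and in the INK4 family 2 fell and 1 was not called.

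**Figure D1:**
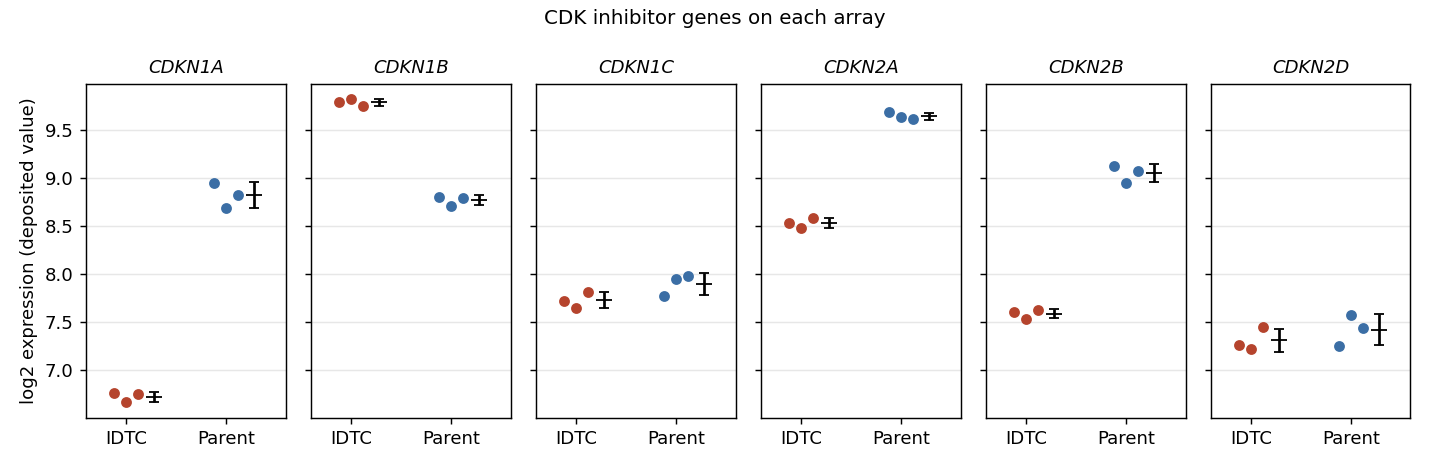
Log2 expression (vertical axis, deposited values) of the 6 measured CDK inhibitor genes, 1 panel a gene, with a point for each IDTC array (red, left) and each Parent array (blue, right); the bars beside the points are the mean ± SD (n = 3). The IDTC points lie below the Parent points for CDKN1A, CDKN2A and CDKN2B and above them for CDKN1B, and the groups overlap for CDKN1C and CDKN2D. Heights should be compared within a panel only.

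CDKN1A encodes p21, an inhibitor that is induced after DNA damage and that mitogenic ERK signalling can also induce. Its log2 levels were 6.76, 6.67 and 6.75 on the IDTC arrays, against 8.95, 8.68 and 8.82 on the Parent arrays. The lowest Parent array lay 1.92 above the highest IDTC array, and the Parent arrays were spread more widely than the IDTC arrays. The mean was 6.73 ± 0.05 in IDTC and 8.82 ± 0.13 in Parent cells, so CDKN1A fell by 2.09 ± 0.08, a 4.27-fold lower level (95% interval 3.76 to 4.85, adjusted p = 1.3e-06). In the order of all 18417 log2 differences from the lowest up it stood at place 122.

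CDKN1B encodes p27, a marker of quiescent cells whose amount is set largely by degradation of the protein, which these arrays do not measure. Its log2 levels were 9.79, 9.82 and 9.75 on the IDTC arrays, against 8.81, 8.71 and 8.80 on the Parent arrays. All IDTC arrays were higher than all Parent arrays, with a gap of 0.94 between the groups that was far wider than the spread within either. CDKN1B rose by 1.02 ± 0.06, a 2.02-fold higher level (95% interval 1.85 to 2.22, adjusted p = 5.7e-06), and stood at place 677 from the highest difference down.

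CDKN1C encodes p57, an imprinted inhibitor known for its role in embryonic growth. Its log2 levels were 7.73, 7.65 and 7.81 on the IDTC arrays, against 7.77, 7.95 and 7.98 on the Parent arrays. The groups overlapped, since Parent 1 was lower than IDTC 3. The difference of -0.17 ± 0.08 was not called (95% interval -0.35 to 0.01, adjusted p = 0.109). Without Parent 1 it was -0.24 and passed the threshold (adjusted p = 0.0341), so this 1 array decides the call.

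CDKN2A encodes p16 and, from a second start and another reading frame, p14ARF, a protein of the nucleolus that is not a CDK inhibitor. Its single probe set is annotated with transcripts of both, so the 2 products were not separated here. The log2 levels were 8.53, 8.48 and 8.59 on the IDTC arrays, against 9.68, 9.64 and 9.61 on the Parent arrays. Every IDTC array was lower than every Parent array, by at least 1.02. CDKN2A fell by 1.11 ± 0.05, a 2.16-fold lower level (95% interval 1.97 to 2.36, adjusted p = 3.8e-06).

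CDKN2B, the neighbour of CDKN2A on chromosome 9, encodes p15, known as an inhibitor induced by TGF-beta. Its log2 levels were 7.61, 7.53 and 7.63 on the IDTC arrays, against 9.13, 8.95 and 9.07 on the Parent arrays. The groups were 1.33 apart at their nearest arrays. CDKN2B fell by 1.46 ± 0.07, a 2.76-fold lower level (95% interval 2.48 to 3.07, adjusted p = 2.5e-06). Another gene of the locus, MTAP, which encodes an enzyme of methionine salvage, fell by 0.61 ± 0.09 (adjusted p = 0.0011). The noncoding gene CDKN2A-AS1 had 5.92 ± 0.04 in IDTC and 5.96 ± 0.07 in Parent cells and was not called (adjusted p = 0.621). CDKN2B-AS1 was not analysed here.

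CDKN2D encodes p19, an INK4 protein whose amount is known to vary through the cell cycle. Its log2 levels were 7.26, 7.23 and 7.45 on the IDTC arrays, against 7.26, 7.57 and 7.45 on the Parent arrays. The groups overlapped over most of their range. The difference of -0.11 ± 0.10 was not called (95% interval -0.34 to 0.12, adjusted p = 0.403), and the interval leaves out a fall of 2-fold. It depended on single arrays, at -0.20 without Parent 1, -0.18 without IDTC 3, -0.07 without IDTC 2 and -0.04 without Parent 2, none of them called.

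**Figure D2:**
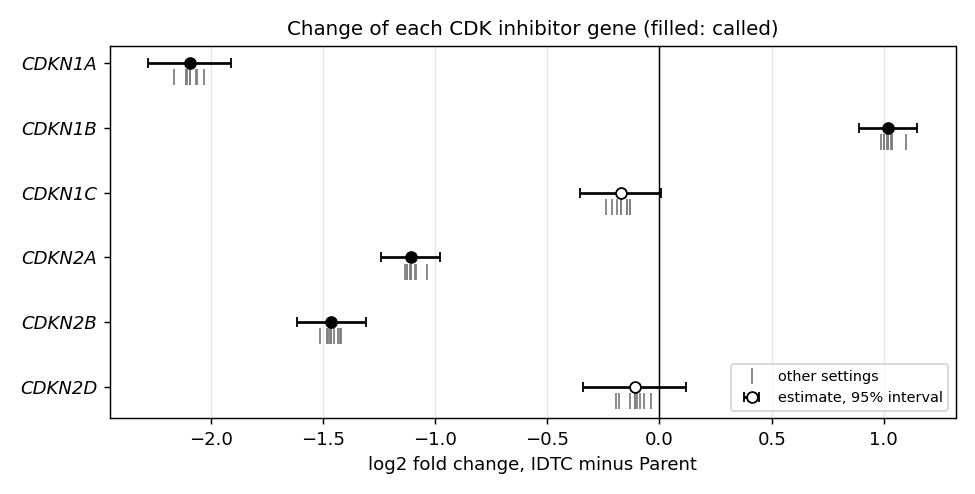
Log2 fold change, IDTC minus Parent (horizontal axis), of each measured CDK inhibitor gene, as a point with its 95% interval; filled points were called by limma, and grey ticks under a point are the values under the other processing settings and with 1 array left out. CDKN1B lies to the right of 0, CDKN1A, CDKN2A and CDKN2B lie to the left, and the intervals of CDKN1C and CDKN2D include 0.

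The changes of the members were also set against each other. The difference between the log2 levels of 2 members was taken within each array, and its mean was compared between the groups for all 15 pairs with an exact permutation test (2-sided), which cannot go below p = 0.1 with 3 arrays against 3. For 14 of the 15 pairs the groups did not overlap, which gave this smallest p of 0.1 (0.107 after adjustment over the 15 pairs). Each of these 14 pairs holds at least 1 called member, so the count is not separate from the calls above. The share of such pairs over all genes was not computed. CDKN1A moved by -3.11 ± 0.07 relative to CDKN1B, the other Cip/Kip gene that was called. CDKN2A moved by 0.35 ± 0.05 relative to its neighbour CDKN2B, which is a smaller measured fall for CDKN2A. CDKN1A moved by -0.63 ± 0.03 relative to CDKN2B. The pair whose groups overlapped was CDKN1C and CDKN2D, with -0.06 ± 0.06 (exact permutation p = 0.3).

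The promoters of the 4 called members are shown because these genes moved in opposite directions in the same cells. Each sequence holds the 250 bases before the annotated transcription start, written 5′ to 3′ on the strand of the gene, from RefSeq (GRCh38.p14). Capitals mark matches, on either strand, to the motifs named after the sequences.
CDKN1A: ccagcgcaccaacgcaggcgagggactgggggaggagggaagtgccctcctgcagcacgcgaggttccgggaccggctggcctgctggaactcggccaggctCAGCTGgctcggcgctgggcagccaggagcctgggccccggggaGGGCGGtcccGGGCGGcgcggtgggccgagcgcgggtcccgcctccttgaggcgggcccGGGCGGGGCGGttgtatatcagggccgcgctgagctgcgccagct
CDKN1B: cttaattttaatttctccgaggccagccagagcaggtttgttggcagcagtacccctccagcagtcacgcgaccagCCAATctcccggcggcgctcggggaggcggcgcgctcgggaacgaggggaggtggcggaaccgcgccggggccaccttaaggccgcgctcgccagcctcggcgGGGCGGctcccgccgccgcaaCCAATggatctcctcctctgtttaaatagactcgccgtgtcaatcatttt
CDKN2A: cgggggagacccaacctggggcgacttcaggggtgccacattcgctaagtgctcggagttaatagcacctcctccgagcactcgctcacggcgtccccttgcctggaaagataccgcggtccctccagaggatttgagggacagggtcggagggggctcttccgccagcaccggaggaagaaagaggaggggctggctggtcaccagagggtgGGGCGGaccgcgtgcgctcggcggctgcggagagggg
CDKN2B: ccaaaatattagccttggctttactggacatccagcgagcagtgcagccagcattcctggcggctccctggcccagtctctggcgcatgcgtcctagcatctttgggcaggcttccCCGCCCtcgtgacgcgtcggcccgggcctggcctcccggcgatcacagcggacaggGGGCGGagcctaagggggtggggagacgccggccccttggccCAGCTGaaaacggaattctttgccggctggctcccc
These windows are chr6:36678464-36678713 (plus strand) for CDKN1A, chr12:12717118-12717367 (plus strand) for CDKN1B, chr9:21974858-21975107 (minus strand) for CDKN2A and chr9:22009306-22009555 (minus strand) for CDKN2B. The CDKN2A window lies before the downstream start, from which p16 is made, and the window before the upstream start, that of p14ARF, had no match to any motif searched.

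Among the motifs searched, GGGCGG, the GC box bound by factors of the SP1 family, was in the windows of all 4 called members. CDKN1A had 4 of them, with first bases at -104, -94, -45 and -40 from the start, the last 2 overlapping by 1 base. CDKN2B had 2, and CDKN1B and CDKN2A had 1 each. Of 35116 windows of the same length before annotated starts, 42.6% held a GC box. The E-box CAGCTG, read by E proteins, was found once each in CDKN1A and CDKN2B, and 14% of all windows held it. CCAAT, the box of NF-Y, was found 2 times in CDKN1B (32% of all windows), at -174 and -50, and in none of the other 3 sequences printed. CDKN2D, which was not called, had 1 CCAAT and 2 GC boxes. The E-box CACGTG (6.34% of all windows), CATGTG (9.42%), the FOXO motif TGTTTAC (2.98%), the AP-1 motif TGANTCA (6.57%) and TATAAA (10.7%) were in none of these windows. GC content was 76.4% for CDKN1A, 64.4% for CDKN1B, 66.8% for CDKN2A and 66.4% for CDKN2B, with a median of 58% over all windows. These matches describe letters in short windows and nothing about binding.

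The kinases and cyclins that the inhibitors bind fell or were not called. Among 13 measured genes 8 fell and none rose, against 24.9% and 21.7% of all genes, while 5 were not called. The median log2 fold change was -0.62, against -0.01 for all genes. The cyclin E genes CCNE2 and CCNE1, whose products activate CDK2, fell (-2.55 ± 0.11 and -1.66 ± 0.15), and CCND3, a D-type cyclin gene, fell by 1.40 ± 0.06. The kinase genes were chosen after their values were seen. CDK6 had 9.13 ± 0.11 in IDTC and 10.21 ± 0.09 in Parent cells and fell by 1.08 ± 0.08. CDK4, its close relative, was not called, with 11.65 ± 0.01 in IDTC and 11.61 ± 0.04 in Parent cells, and neither was CDK2, with 11.36 ± 0.04 in IDTC and 11.31 ± 0.07 in Parent cells.

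Downstream of the kinases, 11 of 20 genes of the RB family, the E2F factors and the DREAM complex (which represses cell cycle genes in quiescent cells) fell, 4 rose and 5 were not called (median -0.65). Of all genes 24.9% fell and 21.7% rose. The E2F factor genes E2F8 (-1.66 ± 0.10), E2F7 (-1.57 ± 0.06) and E2F1 (-1.36 ± 0.06) fell. RBL2, which encodes the pocket protein p130 of quiescent cells, rose by 1.20 ± 0.09, TFDP2, a partner of E2F factors, by 0.63 ± 0.10, and DYRK1A, the kinase that promotes DREAM assembly, by 0.53 ± 0.06. Of 19 measured E2F target genes, 19 fell (median -1.64), among them CDC6 (-3.55 ± 0.07), which loads the replicative helicase. CDC25A, a phosphatase that activates CDK2, fell by 2.63 ± 0.12, and ORC1, a subunit of the origin recognition complex, fell by 2.62 ± 0.06.

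Genes whose products turn over the p27 and p21 proteins mostly fell. Among 12 measured, 9 fell and 1 rose, against 24.9% and 21.7% of all genes, with 2 not called and a median of -0.49. SKP2, the F-box protein that marks p27 for degradation, had 9.37 ± 0.05 in IDTC and 10.50 ± 0.01 in Parent cells and fell by 1.13 ± 0.05. CKS1B, the cofactor of SKP2 in that reaction (chosen after its values were seen), fell by 0.57 ± 0.05. DTL, which recruits p21 to the CUL4 ligase during replication, fell by 1.73 ± 0.08, and CUL4A, a scaffold of that ligase, fell by 0.77 ± 0.07. Its paralogue CUL4B rose by 0.52 ± 0.09.

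**Figure D3:**
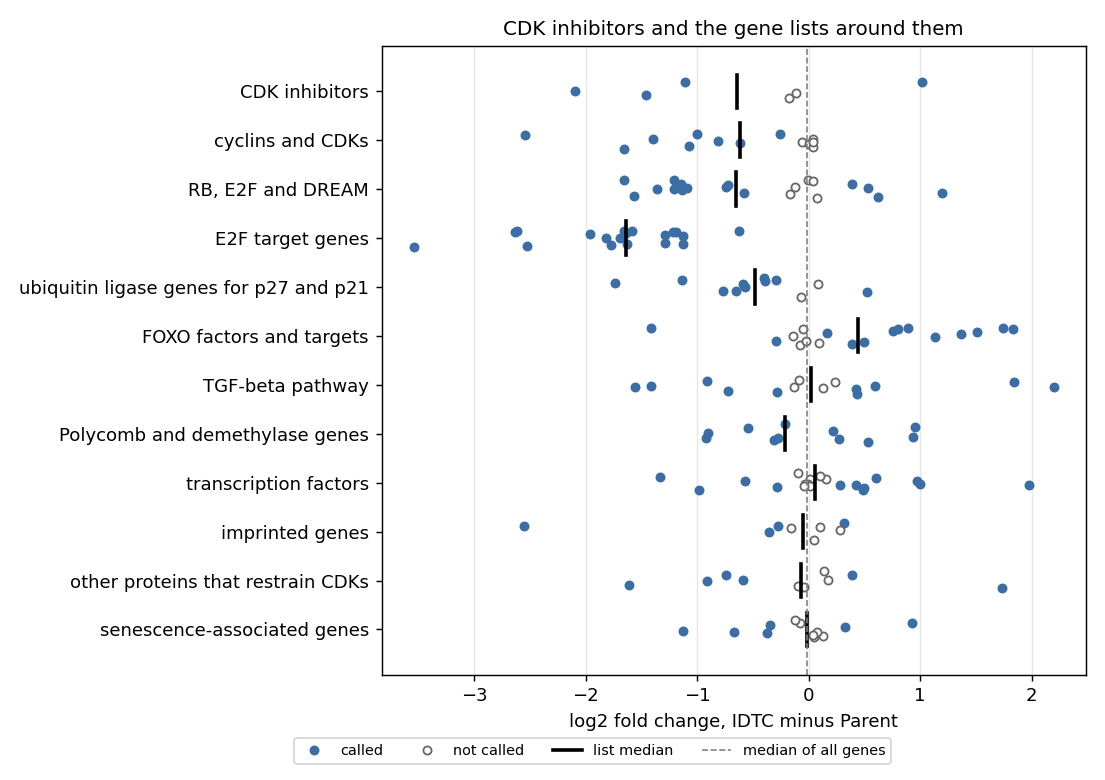
Log2 fold change, IDTC minus Parent (horizontal axis), of the measured CDK inhibitor genes and of 11 gene lists around them, 1 point a gene, filled where limma called it; black bars are list medians and the dashed line is the median of all genes (-0.01). E2F targets lie left of 0 throughout, FOXO factors and targets lie mostly to the right, and the CDK inhibitors fall on both sides.

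FOXO factors, which AKT signalling keeps out of the nucleus, are known activators of CDKN1B. Among 18 measured FOXO factor and target genes 11 rose and 2 fell, against 21.7% and 24.9% of all genes. Another 5 were not called, and the median was 0.44. CITED2 rose by 1.84 ± 0.06, SESN3 by 1.75 ± 0.06 and IRS2, an adaptor of the insulin receptor, by 1.51 ± 0.06. BNIP3, a mitophagy receptor also induced by hypoxia, fell by 1.41 ± 0.06, and SOD2, the mitochondrial superoxide dismutase gene, fell by 0.29 ± 0.08. The factors themselves (FOXO1, FOXO3 and FOXO4) were chosen after their values were seen. FOXO4 rose by 0.89 ± 0.06. FOXO1 had 8.87 ± 0.04 in IDTC and 8.77 ± 0.11 in Parent cells and was not called. FOXO3 had 6.13 ± 0.11 in IDTC and 6.28 ± 0.18 in Parent cells and was not called.

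TGF-beta signalling through SMAD factors is the textbook inducer of CDKN2B. Among 14 measured genes 5 rose and 5 fell, against 21.7% and 24.9% of all genes, with 4 not called. The median was 0.02 (-0.04 after quantile normalization and -0.01 without Parent 1). The receptor gene TGFBR2 rose by 2.20 ± 0.05, the target CCN2 by 1.85 ± 0.06 and SMAD4 by 0.60 ± 0.08. The ligand genes TGFB1 (-1.56 ± 0.11) and TGFB3 (-0.91 ± 0.09) fell, and BHLHE40, a transcriptional repressor, fell by 1.42 ± 0.07. Polycomb complexes silence the CDKN2A and CDKN2B locus in proliferating cells. All 11 measured Polycomb and demethylase genes were called, against 46.6% of all genes, 5 of them higher and 6 lower. Each changed by less than 2-fold (median -0.21). The number called depended on the setting, with 10 after quantile normalization, 9 after re-centring and 8 without Parent 2. RING1, CBX7 and PHC1, of the complex that modifies histone H2A, rose by 0.95 ± 0.05, 0.93 ± 0.11 and 0.53 ± 0.05. PHC2 (-0.93 ± 0.05) and CBX6 (-0.55 ± 0.05), of the same complex, fell, and EZH2, the H3K27 methyltransferase, fell by 0.90 ± 0.06. BMI1, another repressor of this locus, was not analysed here.

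Of 20 transcription factors reported to act on CDK inhibitor promoters, 8 rose and 4 fell, against 21.7% and 24.9% of all genes. Another 8 were not called, and the median was 0.06. MYC, which represses CDKN1A and CDKN2B through MIZ1, had 9.40 ± 0.04 in IDTC and 10.73 ± 0.03 in Parent cells and fell by 1.33 ± 0.05. ETS2, a target of ERK known to activate CDKN2A, fell by 0.98 ± 0.09, and TFAP4, a repressor of CDKN1A, fell by 0.57 ± 0.07. ETS1, also reported to activate CDKN2A, rose by 1.97 ± 0.05, MXD4, an antagonist of MYC, by 1.00 ± 0.07, and TBX2, a repressor of CDKN1A and of the CDKN2A locus, by 0.97 ± 0.06. MITF, which can activate CDKN1A and CDKN2A, was not called, with 11.10 ± 0.09 in IDTC and 11.14 ± 0.01 in Parent cells (chosen after its values were seen). Of 10 measured genes for other proteins that restrain CDKs, 2 rose and 4 fell, against 21.7% and 24.9% of all genes. Another 4 were not called, and the median was -0.06. CABLES1, which links CDKs to the kinase WEE1, rose by 1.74 ± 0.07 and INCA1, an inhibitor of CDK2 with cyclin A, by 0.39 ± 0.11. PKMYT1 and WEE1, kinases that put an inhibitory phosphate on CDK1, fell (-1.61 ± 0.05 and -0.74 ± 0.06), and CDK2AP1, a CDK2-binding protein, fell by 0.91 ± 0.05.

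Among all 18417 genes, those with the pattern nearest to a member were found by the Euclidean distance between the 6 log2 values after each gene's own mean had been taken away. Nearest to CDKN1A were XRCC2, FASN and CSPG4 (distances 0.167 to 0.173), all of which fell by about the same amount, with log2 fold changes of -2.07, -2.15 and -2.09. Nearest to CDKN1B were MARF1, APBB2 and LAMB1 (distances 0.0367 to 0.0555), which rose by 1.01, 1.02 and 1.02. Nearest to CDKN2A were LAMB3, RHBDF2 and CRELD2 (0.0778 to 0.0839), and nearest to CDKN2B were B4GALNT1, DCAF13 and MYBBP1A (0.0999 to 0.124). For CDKN1C they were GSC, ESPNL and HSH2D and for CDKN2D DRD2, HIPK4 and PADI4, none of which was called. With 6 arrays in 2 groups, the distance for the called members rests mainly on the size of the group difference.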

How the data were processed

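Whole-transcript arrays measured the RNA of 6 samples. The deposited table holds log2 values for 33297 probe sets, normalized by the authors; RMA, Partek 6.6 and Affymetrix Expression Console are named, per the submitters' processing notes, without their roles. No genome build was found in the labels. The platform annotation gave 19460 probe sets exactly 1 symbol, and per gene the one with the highest mean was kept. All 18417 genes were fitted with limma 3.58.1 in R 4.3.3 (lmFit, eBayes, no covariates, no filter on dim genes), and adjusted p-values are over all of them. All 6 measured members passed a filter that leaves out the dimmest 40% of genes. The table holds no detection call, so dim genes' changes may be understated, and the number of arrays limits the precision.

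The members and gene lists were chosen with earlier results of these data known. Named were all members, up to 3 called genes a list in each direction with the largest change, and where none was called the 2 largest; for each member the 3 nearest genes; and MTAP and CDKN2B-AS1. Names outside this are said to be chosen later. BMI1, CDKN2A-AS1, the cell markers shown and the imprinted genes not analysed are named too. One other gene list is not reported here. Alternatives were re-centring, quantile normalization, the dim filter, the mean over probe sets, all probe sets fitted, an intensity trend, the replicate number as a block and leaving out each array. As a check of the code, the fit was run on simulated data with independent noise and few changed genes, which does not test the calls made here.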

Additional observations from a re-analysis of the deposited data

How the results depend on the processing

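CDKN1A, CDKN1B, CDKN2A and CDKN2B kept their direction and their call in all 13 alternatives, with log2 fold changes of -2.16 to -2.03, 0.99 to 1.10, -1.14 to -1.04 and -1.51 to -1.42. CDKN2D was called in none of the 13 (-0.20 to -0.04, adjusted p = 0.136 to 0.808). CDKN1C passed it in 1, without Parent 1 (-0.24, adjusted p = 0.0341), and leaving out 1 array at a time gave -0.24 to -0.13. Without the dimmest 40% of genes the imprinted list had 2 called genes (median 0.05) and the senescence list 3 (median -0.37), since 3 genes of each were left. Whether arrays of the same replicate number form pairs is not known. Deviations from the group means correlated at 0.315, -0.192 and 0.26 for numbers 1, 2 and 3. Only IDTC 1 and its namesake correlated best with each other. Deviations from a mean of 3 arrays constrain each other, so these correlations cannot decide the question. With the replicate number as a block 4148 genes were higher and 4707 lower, against 3996 and 4592 without it, and no call of a CDK inhibitor changed. Re-centring gave 3665 and 4693, and quantile normalization 4101 and 4976. The exact permutation test used for pairs of members cannot go below 0.1 with 3 arrays against 3. Probe sets near background have no detection call, and protein amounts, which set much of the activity of these inhibitors, were not measured.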

Other observations

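Genes often used as signs of senescence, a state in which p16 and p21 are usually high, were called about as often as other genes. Among 12 measured genes 2 rose and 4 fell, against 21.7% and 24.9% of all genes, with 6 not called. Their median was -0.02. The list mixes genes that rise in senescence with genes that are lost in it, such as LMNB1. Neither the counts nor the medians of this list therefore give a direction with respect to senescence. Without the dimmest 40% of genes 3 members were left, GLB1, LMNB1 and HMGB2, all of them called, with a median of -0.37. MMP1, CCL2 and IL6 were among the dim genes left out. GLB1, the lysosomal beta-galactosidase gene, had 10.14 ± 0.12 in IDTC and 9.21 ± 0.08 in Parent cells and rose by 0.93 ± 0.08, and the chemokine gene CCL2 rose by 0.32 ± 0.11. LMNB1, the lamin B1 gene that is lost in senescent cells, had 7.02 ± 0.24 in IDTC and 8.15 ± 0.11 in Parent cells and fell by 1.13 ± 0.12. The collagenase gene MMP1 fell by 0.67 ± 0.08 and the chromatin protein gene HMGB2 fell by 0.37 ± 0.09. IL6 was not called, with 4.47 ± 0.10 in IDTC and 4.42 ± 0.02 in Parent cells (chosen after its values were seen). CDKN1A, the gene of p21, fell, and so did CDKN2A, whose probe set does not separate p16 from p14ARF. Their proteins were not measured, and whether the cells were senescent was not tested.

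Around the imprinted CDKN1C, its neighbour PHLDA2, a placental growth regulator, had 7.43 ± 0.16 in IDTC and 9.99 ± 0.16 in Parent cells and fell by 2.56 ± 0.11, while CDKN1C itself was not called. Of 8 measured imprinted genes, 1 rose (the adaptor gene GRB10, by 0.32 ± 0.06) and 3 fell, against 21.7% and 24.9% of all genes. Another 4 were not called. KCNQ1OT1, SLC22A18, IGF2, H19 and PEG3, also on this list, were not analysed here. The median was -0.05, and 0.05 for the 3 members left without the dimmest 40% of genes. Besides PHLDA2, NDN (-0.36 ± 0.05) and the potassium channel gene KCNQ1 (-0.27 ± 0.08) fell, both of them among the dimmest 40% of genes. The difference between the changes of PHLDA2 and CDKN1C was not tested.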
